A study of Mus musculus with 12 samples.

Results

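The genes described here were partly methylated, on average over their listed promoters, in the colon epithelium of every control mouse. A gene was taken when each of the 3 control mice had a level of at least 10% in the short-fragment libraries and the mean of the 3 was under 50%. Of the 10027 genes measured in all 6 short-fragment libraries, 398 met this rule (3.97%), and the series lists 12098 genes in all. The genes were thus chosen by their short-fragment control values, which are given here as a description.

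The induced group was 3 C57BL/6 mice in which the de novo DNA methyltransferase Dnmt3b was induced by doxycycline, given in the drinking water at 0.5 g/l for 3 months. The control group was 3 C57BL/6 mice on regular water. DNA of epithelial cells isolated from the colon was cut with MspI and measured by reduced representation bisulfite sequencing (RRBS), which reads CpG-rich sequence and scores unconverted cytosine as methylated. Each mouse gave 1 library of short fragments (40 to 120 nt) and 1 of long fragments (120 to 220 nt). All mice were on a chow diet. The labels do not give the age, the promoter that drives the transgene or the genotype of the controls, so doxycycline and the enzyme cannot be told apart. A level is the authors' mean CpG methylation of a gene's promoters in percent, and a change is the induced mean minus the control mean in percentage points.

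Promoter CpGs in mammals are mostly either free of methylation, as at CpG islands of active genes, or densely methylated. DNMT3B and DNMT3A set new methylation marks and DNMT1 copies existing ones when DNA replicates. Intermediate levels are known at imprinted genes, where the allele of 1 parent carries the mark, and at X-linked genes in females, where 1 of the X chromosomes is silenced. In the gene and promoter means used here, methylation in part of the cells, on part of the alleles or at part of the CpGs cannot be told apart.

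Promoter sequences of 6 genes, picked by their changes, are given as examples. Dll3 and Agtr1b were among the 10 largest gains, Mtfmt and Cdca5 were nearly level in all 6 mice, and Eif2b2 and Tmem79 were among the 10 lowest changes. The sequences are from RefSeq on GRCm38.p6, from 250 bases before to 50 bases after the start, 5′ to 3′, with each CpG in capitals. The window over which the authors averaged a promoter is not stated, so these bases need not be where the levels were measured.
Dll3 (chr7:28301736-28302035, minus strand): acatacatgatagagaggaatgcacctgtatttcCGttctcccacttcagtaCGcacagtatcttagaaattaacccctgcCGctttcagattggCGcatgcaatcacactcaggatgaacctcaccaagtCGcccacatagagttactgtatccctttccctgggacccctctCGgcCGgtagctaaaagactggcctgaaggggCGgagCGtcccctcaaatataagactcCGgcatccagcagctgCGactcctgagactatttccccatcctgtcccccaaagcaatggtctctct
Agtr1b (chr3:20367128-20367427, minus strand): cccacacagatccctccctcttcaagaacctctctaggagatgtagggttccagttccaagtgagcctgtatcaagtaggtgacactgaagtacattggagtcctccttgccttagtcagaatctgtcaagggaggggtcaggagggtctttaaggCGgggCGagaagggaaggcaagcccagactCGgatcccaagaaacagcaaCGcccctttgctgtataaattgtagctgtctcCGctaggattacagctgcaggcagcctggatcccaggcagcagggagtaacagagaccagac
Mtfmt (chr9:65435532-65435831, plus strand): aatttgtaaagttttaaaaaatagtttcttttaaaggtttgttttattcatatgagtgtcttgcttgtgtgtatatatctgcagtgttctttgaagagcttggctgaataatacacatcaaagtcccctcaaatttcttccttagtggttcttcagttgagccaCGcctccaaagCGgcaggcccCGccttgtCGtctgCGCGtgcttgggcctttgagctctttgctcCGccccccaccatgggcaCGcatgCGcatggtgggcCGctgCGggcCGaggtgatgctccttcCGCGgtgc
Cdca5 (chr19:6084847-6085146, plus strand): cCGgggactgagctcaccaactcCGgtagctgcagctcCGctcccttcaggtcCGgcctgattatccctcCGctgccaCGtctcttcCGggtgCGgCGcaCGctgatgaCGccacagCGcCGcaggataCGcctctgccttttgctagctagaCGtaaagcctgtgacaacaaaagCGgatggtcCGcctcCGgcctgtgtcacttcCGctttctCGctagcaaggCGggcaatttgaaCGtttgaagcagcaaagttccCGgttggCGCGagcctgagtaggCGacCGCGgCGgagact
Eif2b2 (chr12:85219231-85219530, plus strand): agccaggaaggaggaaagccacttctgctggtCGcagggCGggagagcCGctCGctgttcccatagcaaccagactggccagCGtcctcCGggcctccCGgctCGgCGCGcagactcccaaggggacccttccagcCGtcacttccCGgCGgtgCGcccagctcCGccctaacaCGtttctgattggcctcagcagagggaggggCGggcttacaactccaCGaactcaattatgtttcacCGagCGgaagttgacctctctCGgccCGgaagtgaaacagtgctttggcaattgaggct
Tmem79 (chr3:88334384-88334683, minus strand): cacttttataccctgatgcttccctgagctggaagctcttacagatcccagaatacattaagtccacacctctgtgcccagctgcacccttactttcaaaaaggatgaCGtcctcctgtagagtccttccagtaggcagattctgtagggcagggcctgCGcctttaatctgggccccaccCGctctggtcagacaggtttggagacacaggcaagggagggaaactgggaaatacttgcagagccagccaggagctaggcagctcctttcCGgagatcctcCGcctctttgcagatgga

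The Cdca5 window held 29 CpGs and 6 CCGG words, the letters that MspI cuts, and the Eif2b2 window 22 CpGs and 4 CCGG. The Dll3 window had 11 CpGs with 2 CCGG, and the Tmem79 window had 5 CpGs with 1 CCGG. No CCGG was found in these 300 bases of Mtfmt, which had 14 CpGs, or of Agtr1b, which had 5. Both words read the same on the 2 strands, and the CG counts include the CG inside each CCGG. Of the 32851 promoters in the RefSeq table, 94.6% held a CG and 52.8% a CCGG, with a median of 7 CGs. The table held 314 of the 398 genes (78.9%), under the 80% set for comparing base composition over the set, and no such comparison was made.

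The libraries listed 10358 to 10838 genes in the short and 7278 to 8108 in the long fraction. The files give no read counts, so the depth behind each level is unknown. Over all genes, the mean short-fragment level was 17.2% ± 1.10 in induced mice and 4.19% ± 0.331 in control mice (SD, n = 3 each). In the long fraction it was 19.4% ± 1.60 in induced mice and 5.21% ± 0.379 in control mice (SD, n = 3 each). Of the colon epithelium genes listed for this work, 15 were measured and 14 had a control level under 10%, with medians of 0.270% in induced and 0.207% in control mice and means of 9.08% in induced and 1.31% in control mice. Methylation is not expression, so this does not test the cell type. Both libraries of control mouse 2 stood apart at X-linked genes, whose values are given at the end. Without the X-linked genes the mean change of the chosen genes was 23.3 points in short and 24.4 points in long fragments.

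Over the 398 genes, the mean short-fragment level was 48.0%, 48.8% and 51.6% in the 3 induced mice, against 25.7%, 25.8% and 26.2% in the 3 control mice. The groups averaged 49.4% ± 1.89 in induced mice and 25.9% ± 0.274 in control mice (SD, n = 3 each), a change of 23.5 points. All genes together changed by 13.01 points. No induced mouse overlapped a control mouse in this mean, but 3 against 3 mice cannot give an exact permutation p below 0.10.

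The mean hid a wide spread between genes. Changes ran from −22.8 to 72.0 points, with a median of 17.9 and quartiles of 3.28 and 44.1. A gain of over 40 points was seen in 116 genes, and 76 gained over 20 to 40 points, 88 over 5 to 20 points. Another 107 (26.9%) stayed within 5 points of their control mean, and 11 (2.76%) lay more than 5 points under it. In induced mice, 195 of the genes had a mean of at least 50%, 53 of them at least 80%, while 194 were still between 10% and 50% and 9 were under 10%. Over all 10027 genes, 68.1% stayed within 5 points, 16.6% gained over 40 points and 0.269% lay more than 5 points under their control mean. Of all genes, 71.1% had a control mean under 1%, from which a fall of over 5 points is not possible. The rule left such genes out of the chosen set, so nothing is read from the difference between these shares.

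**Figure D1:**
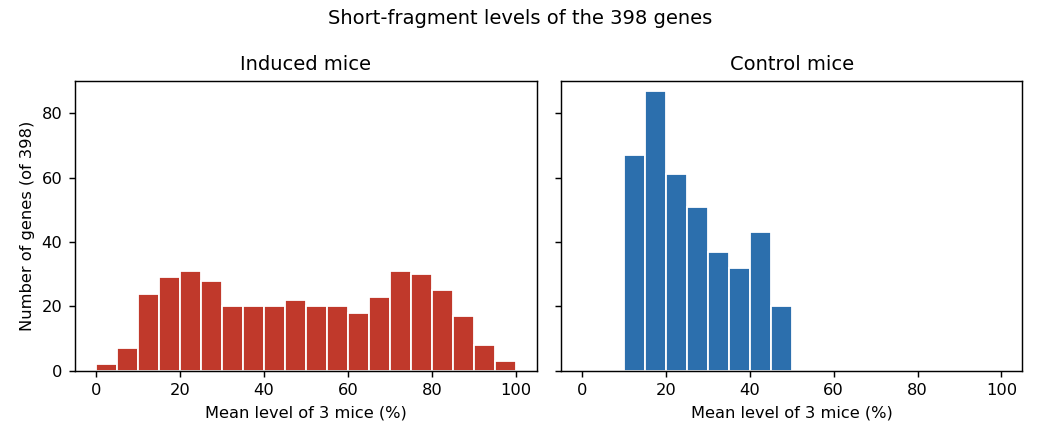
Number of genes (y axis) by mean short-fragment methylation level of 3 mice in percent (x axis, bins of 5 points), for the 398 genes in induced mice (left) and control mice (right). The control means all lie between 10% and 50% by the rule, and the induced means spread from under 10% to over 80%, with 195 genes at 50% or more.

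Every induced mouse exceeded every control mouse in 245 genes (61.6%), against 39.5% of all genes. In 145 genes the groups overlapped, and in 8 (2.01%) every induced mouse was below every control mouse, against 0.908% of all genes. In limma's test over all 10027 genes (adjusted p under 0.05), 27.6% of genes were higher and 0.0798% lower in induced mice. Of the 398, 196 were higher and 1, Zfp768, was lower. The control values of this contrast chose the genes, so nothing is read from these counts.

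The control levels were not evenly spread. A control mean of 10% to under 20% was found in 154 genes, 20% to under 30% in 112, 30% to under 40% in 69 and 40% to under 50% in 63. Within a group, the SD over 3 mice had a median of 5.51 points in induced and 4.23 points in control mice. Induced mouse 3 was the highest induced mouse in 175 genes (44.0%, against 41.7% of all genes), mouse 1 in 115 and mouse 2 in 103. At the lower bound of the rule, Rbmx2 (lowest control value 10%), 1110049F12Rik (10%) and Fam123a (10.01%) were just inside, and Stx16 (9.98%), Rbm3 (9.89%) and Ahcy (9.88%) just outside. At the upper bound, Mest (control mean 49.7%), Espnl (49.6%) and 1700012B09Rik (48.6%) were just inside, and Hpn (50.4%), Kremen2 (50.5%) and Slc6a19 (51.0%) just outside.

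The largest gains were in genes with a control mean of 10.5% to 19.4%. Efnb3 (Gene ID 13643), which encodes the membrane-bound Eph receptor ligand ephrin-B3, had 96.3%, 83.5% and 94.3% in induced mice, against 15.4%, 22.2% and 20.5% in control mice. The change was 72.0 points, the largest of the 398. Sstr5 (20609), a somatostatin receptor, had 92.5%, 78.0% and 87.9% in induced mice, against 15.4%, 19.12% and 13.98% in control mice. Arhgef17 (207212), a guanine nucleotide exchange factor gene, had 79.8%, 80.3% and 84.2% in induced mice, against 12.4%, 12.7% and 13.7% in control mice. In each of these genes the lowest induced mouse lay more than 50 points above the highest control mouse.

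Fgf8 (14179), a growth factor of embryonic patterning, spread more among induced mice: 67.1%, 78.8% and 90.6%, against 11.0%, 10.1% and 10.4% in control mice. Hsd17b1 (15485), an enzyme of estradiol synthesis, had 88.4%, 85.0% and 81.8% in induced mice, against 22.5%, 15.4% and 13.6% in control mice. The other genes among the 10 largest gains were the kinase gene Aatk, Dll3, Agtr1b, Cstad and the glucagon receptor gene Gcgr, with changes of 64.3 to 66.9 points. Dll3 (13389), a Notch ligand of the Delta family, had 76.9%, 77.9% and 81.9% in induced mice, against 14.01%, 10.8% and 15.3% in control mice. Agtr1b (11608), an angiotensin II receptor gene, had 77.1%, 65.9% and 89.4% in induced mice, against 10.9%, 13.5% and 13.8% in control mice. No induced mouse overlapped a control mouse in any of these 10 genes.

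The lowest changes were small by comparison and less even between mice. Ace (11421), the angiotensin-converting enzyme gene, had 0%, 12.4% and 50.8% in induced mice, against 38.0%, 47.1% and 46.5% in control mice. Its change of −22.8 points was the lowest, yet induced mouse 3 was higher than each control mouse. Eif2b2 (217715), which encodes a subunit of the translation initiation factor eIF2B, had 0%, 1.39% and 0% in induced mice, against 10.9%, 11.4% and 32.9% in control mice. Control mice 1 and 2 of Eif2b2 lay close to the lower bound of the rule, and control mouse 3 well above it. Tmem79 (71913) had 25%, 16.04% and 10.1% in induced mice, against 26.3%, 30.7% and 39.8% in control mice.

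The neighbouring genes U2af1l4, Psenen and Tmem149 shared 1 set of values, 0%, 0% and 15.8% in induced mice, against 24.9%, 20.8% and 11.1% in control mice. They are 1 measurement under 3 names. Smtn (29856), whose protein binds actin in smooth muscle, had 0%, 12.2% and 1.43% in induced mice, against 18.5%, 16.4% and 13.2% in control mice. The 8 genes in which every induced mouse lay below every control mouse were Eif2b2, Tmem79, Smtn, Wbp7, Zfp768, Kdelr3, Arfgap2 and Cd3eap. In the last 5 of these the change was between −1.31 and −4.74 points.

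**Figure D2:**
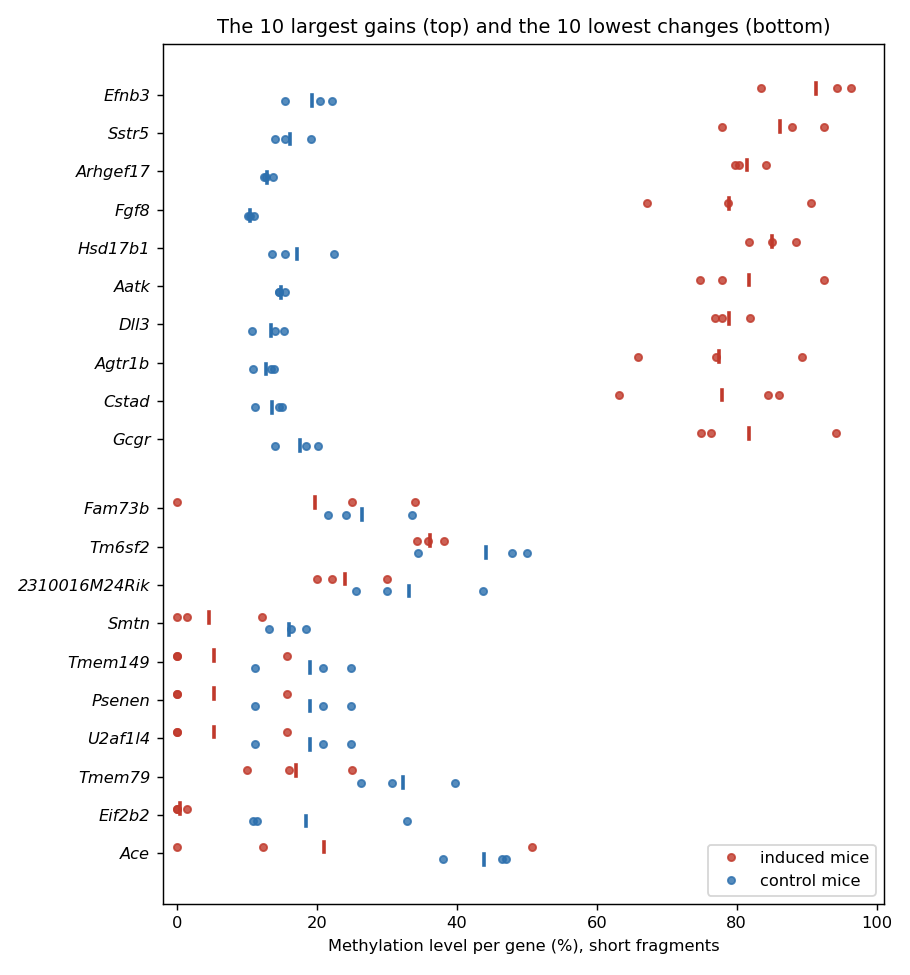
Short-fragment methylation level in percent (x axis) of each mouse for the 10 genes with the largest gains (upper rows) and the 10 with the lowest changes (lower rows). Each point is 1 mouse, induced above control in each row, and each bar is the mean of 3 mice. In the upper rows the groups stand far apart, and in the lower rows single mice such as induced mouse 3 of Ace (50.8%) cross into the other group.

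Some genes spread little over the 6 mice. The 6 short-fragment values spanned under 5 points in 16 genes (4.02%, against 60.7% of all genes). The share of all genes includes genes with a control mean under 1%, which the rule left out, so these shares are given as a description. Cdca5 (67849), which encodes the cohesion factor sororin, and its neighbour Zfpl1 (81909) shared 1 set of values: 11.1% in each induced mouse, against 11.2%, 11.2% and 11.1% in control mice. Mtfmt, the mitochondrial methionyl-tRNA formyltransferase gene, had 14.8%, 14.98% and 13.9% in induced mice, against 14.99%, 14.2% and 14.3% in control mice. Med17, a Mediator subunit gene, had 18.9%, 17.5% and 17.99% in induced mice, against 14.6%, 14.5% and 16.1% in control mice, a small spread without overlap. The others were Agpat2, Zswim4, Dennd4b, Trpm4 and Hrc (1 shared set of values), Tfip11, Stoml1, Rnps1, Cops3, Uck1, Wbp7 and Zfp768. Wbp7 and Zfp768 are also among the 8 genes with every induced mouse below every control mouse. These genes, other than those in the lists of lowest changes and of smallest control spread, were chosen after their values were seen.

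The spread between control mice was smallest in Chchd3, with 0%, 11.7% and 12.6% in induced mice, against 12.5% in each control mouse, followed by Cdca5, Zfpl1, Snx22 and Pigb. It was largest in Slc7a3, a cationic amino acid transporter gene, with 67.6%, 62.0% and 82.2% in induced mice, against 15.2%, 26.0% and 55.4% in control mice. Ltb, Mrpl3, Hmha1 and Gpr50 came next. In induced mice the range exceeded 40 points in 7 genes (1.76%, against 0.778% of all genes): Des, Rbmx2, Lamp2, Ccdc155, Shc1, Fam53a and Ace. These 7 were also singled out by their values. Ccdc155 had 8.25%, 65.6% and 65.8% in induced mice, against 29.1%, 30.2% and 22.5% in control mice.

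The long fragments come from other MspI fragments of the same mice, and their values did not choose the genes. All 6 long-fragment libraries listed 178 of the 398 genes, out of 6127 genes tested. Their mean level was 38.6%, 40.3% and 43.4% in induced mice, against 16.2%, 15.99% and 16.8% in control mice. The change was 24.4 points, against 14.2 points over all genes of the fraction. It was between −17.6 and 85.6 points by gene, with a median of 16.6. The median control mean was 7.68% in this fraction, against 21.07% for the same genes in short fragments.

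limma's test on long fragments (Benjamini-Hochberg adjusted over 6127 genes) called 66 of the 178 genes higher (37.1%) and 0 lower in induced mice, against 23.2% and 0.0163% of all genes. At an unadjusted p under 0.05, 91 were higher (51.1%) and 0 lower, against 30.7% and 0.0326% of all genes. The groups did not overlap in 108 of the 178 genes (60.7%), in each with the induced mice above, against 38.2% of all genes. In none of the 178 did all induced mice lie below, as in 0.277% of all genes. With 1 mouse left out, the calls numbered 57 to 72 without an induced mouse and 43, 44 and 42 without control mouse 1, 2 and 3. Of the 66, 39 were called in all 6 of these fits. With each library centred on its median, 79 were higher and 17 lower, against 26.6% and 31.6% of all genes, each of these 17 at a level of at most 0.14% in both groups.

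Tssk3 (58864), a testis-specific kinase gene, and 1700125D06Rik (68233) shared 1 set of values and gained the most in long fragments. They had 87.7%, 86.2% and 95.3% in induced mice, against 2.57%, 6.35% and 3.48% in control mice, a change of 85.6 ± 2.89 points (SE, adjusted p = 0.000364). Cldn5 (12741), a tight junction gene of endothelium, had 82.6%, 88.6% and 83.4% in induced mice, against 0%, 9.51% and 5.71% in control mice (adjusted p = 0.000496). Fgf22, Npr1, Pcdh20, Tiam1 and Pacsin1 gained 68.2 to 78.2 points, with adjusted p between 0.000336 and 0.00249. Npr1 encodes a natriuretic peptide receptor, Pcdh20 a protocadherin and Tiam1 an exchange factor for Rac. All of these were called with any 1 mouse left out.

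Fgf8 rose in long fragments too, with 58.7%, 74.7% and 90.8% in induced mice, against 4.97%, 3.70% and 0.3% in control mice (adjusted p = 0.00705). Arhgef17 had 63.5%, 72.4% and 67.4% in induced mice, against 0%, 0% and 1.58% in control mice (adjusted p = 0.000431). Sstr5 (change 50.4 points, adjusted p = 0.0130) and the serotonin receptor gene Htr1b (70.0 points, adjusted p = 0.00999) lost the call without any 1 control mouse, with adjusted p up to 0.0628 for Sstr5 and 0.0522 for Htr1b. Dll3 had 72.0%, 88.0% and 43.3% in induced mice, against 16.2%, 5.03% and 7.24% in control mice (adjusted p = 0.0382). It lost the call without any 1 control mouse and without induced mouse 1 or 2, with adjusted p up to 0.137. Aatk (58.6 points, adjusted p = 0.0438) lost it without any 1 control mouse and without induced mouse 2 or 3, with adjusted p up to 0.149.

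The lowest long-fragment changes were those of Usp21, Ppan, Impact, Dohh and Lpin1, and none of the 5 passed the threshold (adjusted p between 0.168 and 0.739). Usp21, a deubiquitinase gene, had 35.0%, 38.3% and 43.8% in induced mice, against 43.6%, 62.3% and 64.0% in control mice. Induced mouse 3 and control mouse 1 overlapped, and Usp21 was called lower without control mouse 1 (adjusted p = 0.0286). In short fragments the induced mice of Usp21 were the higher ones without overlap, at 34.6% ± 1.21 in induced and 23.3% ± 4.30 in control mice (SD, n = 3 each). Ace had 2.21%, 3.91% and 20.6% in induced mice, against 0.02%, 0.70% and 0% in control mice in long fragments, where the change was 8.67 points (adjusted p = 0.432).

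The sizes of the change in the 2 fractions can be set side by side for the 178 genes. They share the mice, and no test was made of the relation. Of the 56 genes that gained 40 points or more in short fragments, 41 were called higher in long fragments (73.2%, against 23.2% of all genes), with a median long change of 55.1 points. Of the 29 with a short change of 20 to under 40 points, 15 were called (51.7%), with a median of 23.1 points. Of the 41 with 5 to under 20 points, 6 were called (14.6%, median 5.19 points), and of the 52 with under 5 points, 4 were called (7.69%, median 2.66 points), both shares under that of all genes. These 4 include Kat2a, a histone acetyltransferase gene, with 91.8%, 94.4% and 90.1% in induced mice, against 64.8%, 65.6% and 53.0% in control mice in long fragments (adjusted p = 0.00829), beside 34.9% ± 5.14 in induced and 32.4% ± 2.85 in control mice in short fragments (SD, n = 3 each).

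**Figure D3:**
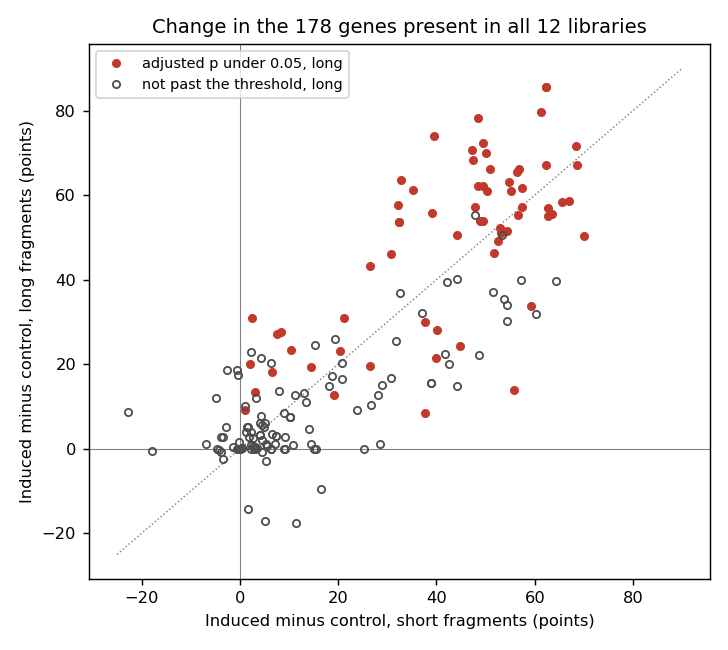
Change (induced minus control mean, points) in short fragments (x axis) and long fragments (y axis) of the 178 genes in all 12 libraries. Filled points are the 66 genes past limma's threshold in long fragments, open points the rest, and the dotted line marks equal change. Most filled points lie at short-fragment changes above 20 points, and Ace is the point farthest left.

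Control levels differed between the fractions. In long fragments 55 of the 178 genes had a control mean under 1%, 44 had 1% to under 10%, 62 had 10% to under 50% and 17 had 50% or more. The control mean was lower in long than in short fragments in 132 genes and higher in 46, by more than 10 points in 31 of these. The rule set a lower bound of 10% on the short-fragment controls alone, so this direction is given as a description. Over all genes of each fraction the control mean was 5.21% in long and 4.19% in short fragments. Genes with 1% to under 10% in long-fragment controls had a median long change of 53.2 points, and 29 of the 44 were called higher (65.9%, against 23.2% of all genes). Those with under 1% had a median long change of 1.15 points, and 7 of the 55 were called (12.7%). These classes were formed from the control values of the same contrast, so nothing is read from their counts.

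In 24 of these 55 genes the long-fragment mean stayed under 1% in induced mice as well. Mcrs1 had 44.8%, 42.5% and 46.7% in induced mice, against 43.4%, 44.9% and 36.9% in control mice in short fragments, and 0% in all 6 long-fragment libraries. Cd55, a complement regulator gene, had 35.3% ± 1.14 in induced and 33.0% ± 5.50 in control mice in short fragments (SD, n = 3 each), with long-fragment values of 0% to 0.17%. Pofut2 showed the reverse, with 15.9% ± 0.996 in induced and 16.1% ± 2.95 in control mice in short fragments, and 96.8% ± 2.80 in induced and 95.2% ± 8.11 in control mice in long fragments (SD, n = 3 each). Snai1, which encodes a transcription factor of epithelial-mesenchymal transition, had 25.7%, 28.3% and 30.2% in induced mice, against 0.03%, 0% and 1.11% in control mice in long fragments (adjusted p = 0.000726). Its short-fragment level was 25.7% ± 7.61 in induced and 17.4% ± 3.22 in control mice (SD, n = 3 each), with overlap. Mcrs1, Cd55, Pofut2, Snai1 and Kat2a were chosen after their values were seen.

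**Figure D4:**
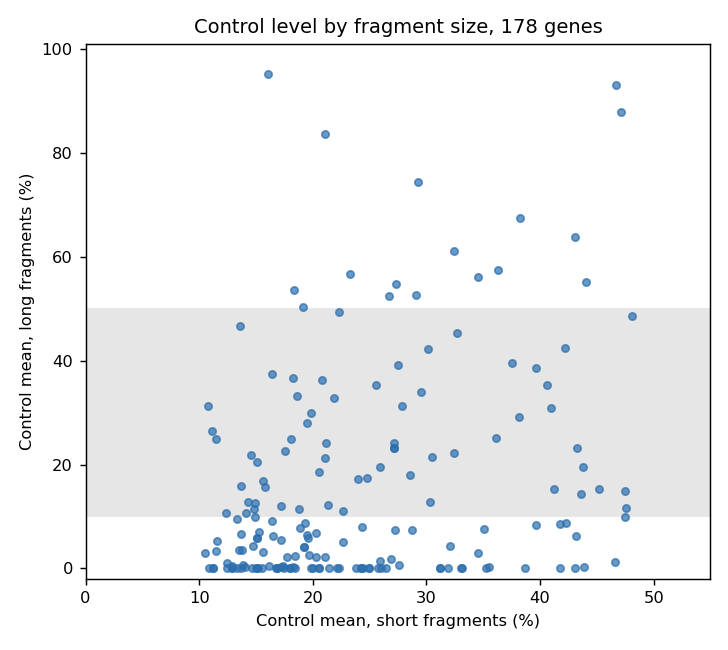
Control mean level (percent) in short fragments (x axis) and long fragments (y axis) of the 178 genes. The shaded band marks long-fragment means of 10% to 50%, which 62 genes had, while 55 genes lay under 1%.

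The same rule applied to the long-fragment control values held for 317 genes, 255 of them in all 12 libraries. Both fractions met it in 42 genes, which is 23.6% of the 178 and 16.5% of the 255. Of these 42, 16 (38.1%) were called higher in long fragments, near the 37.1% of the 178 and against 23.2% of all genes. Trappc6a and Bloc1s3 are counted separately there but share their group means in both fractions. The long-fragment control values helped to choose the 42, so nothing is read from this count. Dazl, Gata3, Gnas, Nsd1, Pdx1, Kcna6 and Mdk are among the 42. Nsd1, a histone methyltransferase gene, had 92.6%, 88.6% and 100% in induced mice, against 36.1%, 29.2% and 33.1% in control mice in long fragments (adjusted p = 0.00116). Ddah2 had 75.8%, 77.3% and 78.5% in induced mice, against 32.3%, 32.4% and 29.0% in control mice in long fragments (adjusted p = 0.000253), and 58.7% ± 4.61 in induced and 27.8% ± 4.12 in control mice in short fragments (SD, n = 3 each). Prkcz moved least of these examples, with 47.0% ± 1.84 in induced and 39.5% ± 6.10 in control mice in long fragments (SD, n = 3 each, adjusted p = 0.264). Nsd1, Ddah2, Pdx1, Kcna6 and Mdk were named after their values were seen.

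A gene's level is the mean of its listed promoters, and in some genes it averaged unlike promoters. Of the 398 genes, 35 listed 2 or more promoters (8.79%, against 9.71% of all genes). In 11 of these the control levels of the promoters differed by more than 10 points, and over all 10027 genes this was so in 14. All 6 genes in the fraction with 1 promoter under 10% and another at 50% or more in controls were among the 398: Lpin1, Prkcz, 9030409G11Rik, Rcan2, Gnas and Limk2. The rule acts on this gene mean, so these counts are a description.

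Lpin1, a phosphatidate phosphatase gene, had 1 promoter at 96.5% in induced and 86.4% in control mice, and another at 0.47% in induced and 0.05% in control mice. Its gene level of 48.5% in induced and 43.2% in control mice was at neither promoter. The unmethylated promoter likewise stayed under 10% in induced mice in Prkcz, 9030409G11Rik, Gnas, Limk2, Btbd3, Rai1 and Sept9. In Rai1 it had 0.503% in induced and 0.0167% in control mice, while the other promoter had 92.6% in induced and 42.8% in control mice. In Rcan2 both promoters gained, the lower one with 73.0% in induced and 0.503% in control mice. Speg and Pacsin1 also gained at the lower promoter, with 66.5% in induced and 1.78% in control mice for Speg and 63.4% in induced and 2.42% in control mice for Pacsin1.

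**Figure D5:**
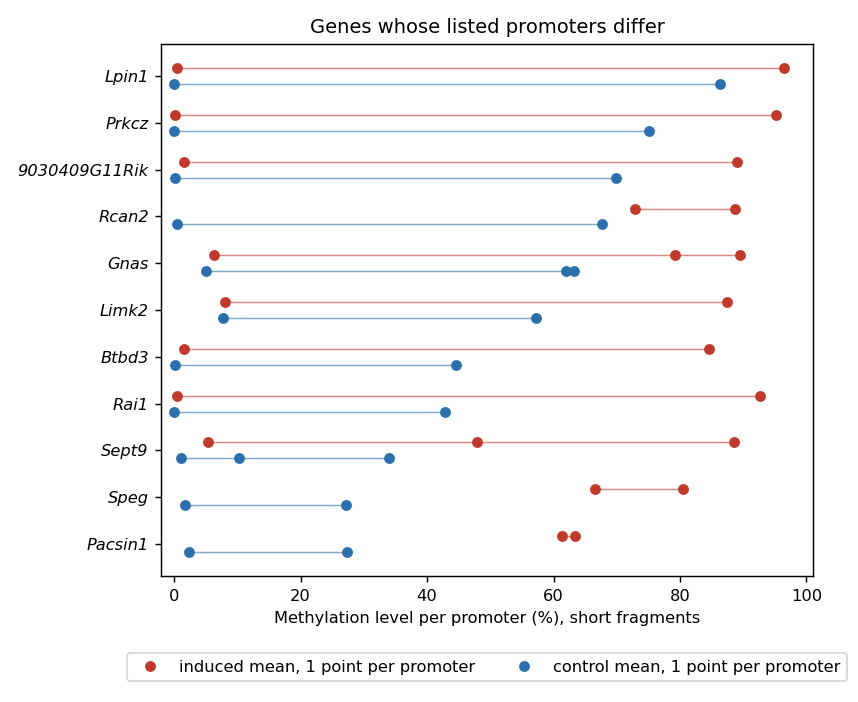
Mean short-fragment level in percent (x axis) of each listed promoter in the 11 genes whose promoters differed by over 10 points in control mice. Each point is a promoter's mean of 3 mice, with induced mice above control mice in each row and a line joining a gene's promoters. In 8 genes the lowest promoter stayed under 10% in induced mice, and in Rcan2, Speg and Pacsin1 it lay above 60%.

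Promoters can also be shared between genes. Values identical to those of another gene in all 6 short-fragment libraries were found in 41 of the 398 genes (10.3%, against 19.9% of all genes). This leaves 377 distinct sets of values among the 398. Beside Cdca5 with Zfpl1 and Trpm4 with Hrc, these include Tssk3 with 1700125D06Rik.

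Imprinted genes had the highest share of the lists used here. Of 29 measured, 9 were among the 398 (31.0%, against 3.97% of all genes): Cdkn1c, Gnas, Impact, Mest, Phlda2, Plagl1, Mkrn3, Axl and Peg12. Their median was 71.6% in induced and 40.9% in control mice, and the median change was 30.7 points, beside 17.9 over the 398. In 8 of the 9 every induced mouse exceeded every control mouse, as in 61.6% of the 398 and 39.5% of all genes. The whole list of 29 had a median of 64.2% in induced and 6.56% in control mice. Mest had 88.4%, 83.2% and 90.5% in induced mice, against 42.2%, 59.2% and 47.7% in control mice. Mkrn3 had the smallest SD of the 9 in both groups, with 72.8%, 69.7% and 72.2% in induced mice, against 39.3%, 40.6% and 42.7% in control mice. Plagl1 had 69.8%, 62.1% and 75.4% in induced mice, against 35.2%, 49.6% and 38.6% in control mice.

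The cell cycle inhibitor gene Cdkn1c had 75.7%, 66.2% and 78.7% in induced mice, against 34.0%, 28.2% and 25.7% in control mice. Phlda2 had 39.2% ± 5.48 in induced and 13.1% ± 2.44 in control mice, Axl 83.8% ± 2.97 in induced and 39.1% ± 5.56 in control mice, and Peg12 74.8% ± 7.96 in induced and 30.5% ± 12.7 in control mice (SD, n = 3 each). Impact was the exception, with 54.5%, 42.5% and 40.3% in induced mice, against 37.8%, 39.1% and 55.2% in control mice. Gnas, which encodes a G protein alpha subunit, listed 8 promoters in 3 distinct sets of values. These had 89.5% in induced and 62.0% in control mice, 79.2% in induced and 63.2% in control mice, and 6.31% in induced and 4.98% in control mice. Cdkn1c, Gnas, Impact and Peg12 were in the long fraction and missed the threshold there (adjusted p = 0.471, 0.125, 0.632 and 0.0978). In long fragments Cdkn1c had 89.2% ± 1.64 in induced and 74.4% ± 18.7 in control mice (SD, n = 3 each).

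Of 25 germline genes measured, 3 were among the 398 (12%): Dazl, Boll and Tdrd6. Dazl and Boll encode RNA-binding proteins of germ cells and Tdrd6 a Tudor protein of the chromatoid body. Dazl had 56.6%, 54.7% and 46.4% in induced mice, against 47.8%, 38.3% and 40.5% in control mice, with overlap in short fragments. In long fragments it had 72.6%, 59.0% and 65.2% in induced mice, against 44.6%, 42.1% and 40.4% in control mice, a change of 23.3 ± 3.91 points (SE, adjusted p = 0.0168). It lost the call without any 1 control mouse and without induced mouse 3 (adjusted p up to 0.0769). Boll had 79.4% ± 3.03 in induced and 43.2% ± 6.00 in control mice, and Tdrd6 78.0% ± 5.26 in induced and 17.96% ± 2.64 in control mice (SD, n = 3 each), neither with overlap.

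The stromal, muscle and endothelial list held 8 measured genes, and 2 muscle genes of it, Tagln and Des, were among the 398. Tagln had 71.3%, 86.2% and 91.4% in induced mice, against 21.8%, 22.6% and 24.1% in control mice. Des had 45.6%, 54.98% and 88.3% in induced mice, against 15.9%, 10.6% and 14.02% in control mice. In long fragments Des changed by 62.2 ± 14.1 points (SE, adjusted p = 0.0415) and lost the call without any 1 control mouse and without induced mouse 2 or 3 (adjusted p up to 0.142). The whole list had a mean level of 50.05% to 57.7% in induced mice and 7.85% to 8.15% in control mice. No gene among the 398 came from the lists of colon epithelium (15 measured), the methylation machinery (17), Wnt antagonists (22) or immune cells (3). The part of other cell types in these levels was not tested.

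Gene families taken by symbol gave shares below that of the imprinted list. The genes named for a family were mostly those with its largest short-fragment changes. Of 19 protocadherins measured, which are neural adhesion molecules, 4 were among the 398 (21.1%). In all 4 the induced mice lay above the control mice, against 61.6% of the 398 and 39.5% of all genes. The whole list of 19 had a median of 68.1% in induced and 21.3% in control mice. The 4 had 74.0% in induced and 30.4% in control mice. Pcdh9 had 74.7%, 68.1% and 89.0% in induced mice, against 18.5%, 51.1% and 30.9% in control mice. Pcdh20 and Pcdhga10 were in the long fraction and called higher, Pcdhga10 with a change of 28.0 points (adjusted p = 0.0405, up to 0.145 with a mouse left out: any control mouse or induced mouse 1 ended the call). Of 36 Hox genes, which pattern the body axis, 6 were among the 398 (16.7%). In 5 the induced mice lay above without overlap, against 61.6% of the 398 and 39.5% of all genes. The whole list of 36 had a median of 46.0% in induced and 2.985% in control mice. The 6 had 60.9% in induced and 23.3% in control mice. Hoxd10 had 59.4%, 68.0% and 76.4% in induced mice, against 17.95%, 12.5% and 22.1% in control mice, and Hoxd12, Hoxb5 and Hoxb1 changed by 46.6, 42.5 and 32.0 points. In long fragments Hoxb5 had 72.6% ± 2.64 in induced and 52.7% ± 33.6 in control mice (SD, n = 3 each, adjusted p = 0.584).

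Zinc finger genes made up 11 of 198 (5.56%), with a median change of 5.27 points. In 6 of the 11 every induced mouse exceeded every control mouse, and in 1 every induced mouse lay below. They ranged from Zfp251, with 76.9% ± 4.14 in induced and 14.1% ± 2.99 in control mice (SD, n = 3 each), to Zfp768, in which induced mice lay below control mice at 8.62% ± 0.646 in induced and 11.5% ± 0.670 in control mice. Zfp385a was the most even among induced mice, with 57.8%, 57.7% and 57.6% in induced mice, against 23.9%, 27.1% and 24.8% in control mice. Ion channel genes gave 6 of 96, among them Cacng6 (change 61.6 points), Kcnj11 (40.7) and Kcna5 (35.1). Trpm4, another of the 6, had 12.5% in induced and 11.5% in control mice. In 5 of the 6 every induced mouse exceeded every control mouse. The whole list of 96 had a median of 61.7% in induced and 1.935% in control mice. G protein-coupled receptor genes gave 5 of 58, among them Gpr81 (51.8 points) and Htr1f (48.2). In all 5 every induced mouse exceeded every control mouse. The whole list of 58 had a median of 60.5% in induced and 1.71% in control mice. Solute carrier genes gave 6 of 196 (3.06%), with a median change of 26.9 points. In 3 of these 6 every induced mouse exceeded every control mouse. Among the 6 were Slc22a7 (58.6 points) and the dopamine transporter gene Slc6a3 (48.4). In long fragments Slc6a3 had 64.4% ± 9.86 in induced and 2.27% ± 3.70 in control mice (SD, n = 3 each, adjusted p = 0.00312).

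Developmental transcription factor genes other than Hox gave 6 of 147 (4.08%, near the 3.97% of all genes). In all 6 the induced mice lay above the control mice, against 61.6% of the 398 and 39.5% of all genes. The whole list of 147 had a median of 62.1% in induced and 1.82% in control mice. The 6 had 48.8% in induced and 16.3% in control mice, so a gain is not particular to them. Lhx3, a pituitary and motor neuron factor, had 74.95%, 68.3% and 70.5% in induced mice, against 16.2%, 20% and 24.6% in control mice. Its long-fragment change of 66.1 points (adjusted p = 0.0381) lost the call without any 1 control mouse and without induced mouse 1 or 3 (adjusted p up to 0.137). Foxi2, Gata3 and Foxj1 changed by 41.9, 28.9 and 25.5 points in short fragments. Genes with clone names (Rik or Gm) gave 29 of 683 (4.25%), such as 4921515J06Rik with 94.3% ± 3.36 in induced and 41.5% ± 8.15 in control mice (SD, n = 3 each).

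By RefSeq chromosome, chromosome 7 held 52 of the 398 genes (13.1%, against 7.32% of all genes). It carries Cdkn1c, Phlda2, Peg12, Mkrn3 and Axl, as well as Trpm4, Hrc and Dll3. Chromosome 11 held 39 (9.80%, against 8.75%) and chromosome 2 held 38 (9.55%, against 8.17%).

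The X chromosome held 10 of the 398 genes (2.51%, against 2.29% of all genes): Mycs, Lrch2, Gpr50, Slc7a3, Rbmx2, Apln, Lamp2, Timm8a1, Tceanc and Prickle3. Over these 10 the mean short-fragment level was 68.2%, 61.8% and 65.3% in the induced mice, against 37.0%, 20.4% and 41.4% in control mice 1, 2 and 3. Control mouse 2 was the lowest control mouse in 8 of the 10, against 120 of the 388 autosomal genes (30.9%). The 388 autosomal genes had 47.4%, 48.4% and 51.2% in the 3 induced mice, against 25.5%, 25.9% and 25.8% in the 3 control mice. In long fragments 4 of the 10 were measured, with a mean of 46.3%, 64.2% and 63.2% in induced mice, against 49.3%, 5.48% and 42.98% in control mice 1, 2 and 3. Control mouse 2 was the lowest control mouse in all 4. Tceanc had 20.1%, 45.3% and 36.0% in induced mice, against 61.0%, 0% and 26.2% in control mice in long fragments. Gpr50, a receptor gene related to the melatonin receptors, had 65.6%, 80.5% and 80.7% in induced mice, against 36.9%, 5.25% and 33.1% in control mice (adjusted p = 0.0329). It lost the call without control mouse 1 or 3 or any 1 induced mouse (adjusted p up to 0.109), and was called without control mouse 2.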

How the data were processed

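Reduced representation bisulfite libraries of 3 induced and 3 control mice were analysed, a short- and a long-fragment library from each. Per the file headers, each deposited table gives a mean CpG methylation fraction (0 to 1) for every gene and for each of its RefSeq promoters. Aligner, build, promoter window and coverage filter: not given in the sources used here. Without read counts the depth is unknown, counting error cannot be stated, and 0% can come from few reads. Fractions were multiplied to percent. Genes listed in all 6 libraries of a fraction were compared with limma 3.58.1 (lmFit and eBayes) in R 4.3.3 on percent, Benjamini-Hochberg adjusted over all genes of the fraction, threshold 0.05. Because the control values of the short fraction chose the genes, adjusted p-values of single genes come from the long fraction alone. The control mice are the same in both. The mice are separate animals. Tables and figures used Python 3.11.15, numpy 2.4.6, pandas 2.3.3 and matplotlib 3.10.9. The main fit of each fraction was run on simulated data, and the alternative fits were not. The simulation gave both groups the spread of the control mice and set no limit on false calls. In the long-fragment data the median SD over all genes was 1.28 points in induced and 0.0945 points in control mice. The simulation thus does not measure false calls under that unequal spread.

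The genes and the lists were chosen with earlier results of these data known. Genes were named by rule: the 10 largest and 10 lowest short-fragment changes and the 10 largest and 5 lowest long-fragment changes. Members of the imprinted and germline lists were named too. Of each other list, up to 4 genes were taken by the largest absolute short-fragment change, so they do not stand for their list. The rest were those nearest the bounds, the 5 smallest and 5 largest control ranges, and genes with unlike promoters. Symbols and chromosomes were matched to RefSeq GRCm38.p6 by Gene ID. Alternatives were another scale, a variance trend, a filter, centring, shared promoters counted once, a mouse-number block, each mouse left out, and other bounds. A gene that the rule names is not reported here.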

Additional observations from a re-analysis of the deposited data

How the results depend on the processing

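Over the 398 genes, the mean change kept its direction under every alternative run and moved beyond the spread between mice in 1: with the median over genes in place of the mean, the long-fragment change was 32.6 in place of 24.4 points. The count of long-fragment genes called (1422 of 6127) was 3566 after centring each library on its median (1628 higher and 1938 lower), and 885 to 1528 with 1 mouse left out. Centring shifted a library by at most 0.417 points in the long and 0.273 in the short fraction, and short-fragment calls were 5212 (2844 higher and 2368 lower) in place of 2773, or 2227 to 3029 with 1 mouse left out. The 66 genes called higher among the 178 were 42 to 72 with 1 mouse left out, and those called lower were 17 after centring and 0 to 1 with 1 mouse left out, namely Usp21 without control mouse 1. Centring turned the long-fragment change of Cdca5 and Zfpl1, whose means are under 0.1%, to −0.455 points. Of the 398 in short fragments, 1 was called lower, 2 on a log2 ratio scale, 0 with a variance trend, 2 with a filter at a mean of 1%, 5 after centring and 0 to 3 with 1 mouse left out. Fitted with the replicate number as a block, long-fragment calls were 652, and 29 of the 178 genes were higher. The numbers name different mice in the 2 groups. Deviations of same-numbered mice had correlations of 0.00102, 0.0366 and 0.0247 in long and 0.0736, 0.00398 and −0.0498 in short fragments. For differently numbered mice they ran from −0.0311 to 0.0145 in long and from −0.0772 to 0.0838 in short fragments. A batch shared by mice of the same number was not tested. In short fragments the block gave 147 higher and 1 lower (Zfp408) of the 398. The cause of these shifts was not tested. Among the values of 43 named genes under the alternatives, 435 stayed on their side of the threshold and 58 no longer passed it. Another 16 newly passed it, and 2 changed sign and passed it. The 435 include changes of sign where neither fit passed, such as Lpin1 (−2.99 points, and 1.94 without control mouse 1).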
